A study of Saccharomyces cerevisiae with 4 samples.

Results

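Transcript levels of 10 genes through which budding yeast makes, takes up and burns glycerol, oxidises lactate and feeds NADH into respiration were compared between cells whose Snf1 kinase was open to chemical inhibition and cells whose kinase was not. The genes were chosen by name, as the probe sets whose annotated gene was GUT1, GUT2, GPD1, GPD2, STL1, NDE1, NDE2, NDI1, DLD1 or CYB2, and each had 1 probe set among the 5656 genes that the Affymetrix Yeast Genome S98 array names singly. The groups were strains expressing Snf1-I132G (2 arrays) and strains expressing Snf1 without that change (2 arrays). Snf1, a protein kinase of the AMP-activated family, is needed for growth without glucose, and its I132G form accepts the pyrazolopyrimidine 2NM-PP1, an inhibitor made to spare the unchanged kinase. Both strains were grown in synthetic medium without uracil and with 2% glucose, held for 120 min in 2% raffinose with 0.05% glucose, and given 25 µM 2NM-PP1 for 40 min. RNA of 3 transformants of each strain was combined and run in duplicate, so every p-value covers array-to-array spread alone, possibly of technical origin. As every array came from inhibitor-treated cells, an effect of the I132G allele and an effect of inhibiting it cannot be told apart.

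Glycerol is made by reducing dihydroxyacetone phosphate with cytosolic NADH, and it is burned after phosphorylation by oxidising glycerol-3-phosphate at the mitochondrial inner membrane. Budding yeast has no proton-pumping complex I, and single-polypeptide NADH dehydrogenases on both faces of that membrane pass electrons to ubiquinone instead, while lactate dehydrogenases of the mitochondrion pass theirs to cytochrome c. In this organism, glycerol and lactate serve as respiratory carbon sources, and their use is repressed by glucose.

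Values are MAS5 signals, an array brightness on a linear scale. Differences are Snf1-I132G minus Snf1 on the scale log2(signal + 16), which understates changes of dim genes. A gene is said to rise or fall where limma's moderated test over 6956 probe sets gave a Benjamini-Hochberg adjusted p under 0.05. Over the tested probe sets the median difference was -0.10 as deposited. Scaling moved it to 0.02 (quantile normalization), 0.09 (each array centred on its median) and -0.33 (centred on hybridization controls). Over all probe sets 713 rose and 1219 fell, so that rises made up 36.9% of the calls, against 47.5%, 54.1% and 18.9% under those 3 scalings.

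The 4 genes whose enzymes feed electrons to ubiquinone (GUT2, NDE1, NDE2 and NDI1) fell, and GPD2, one of a pair of genes for the first step of glycerol synthesis, rose. Of the 10 genes, 9 passed the brightness filter. Of these 6 fell (GUT1, GUT2, NDE1, NDE2, NDI1 and CYB2), where 17.5% of all tested probe sets fell. GPD2 rose, where 10.3% of all tested probe sets rose. GPD1 and DLD1 did not pass. With the pair of same-numbered arrays as a block, GPD1 joined the falls, which were then 7 of 9 genes where 28.6% of all tested probe sets fell, and GPD2 was the 1 rise where 19.5% rose. The arrays of the groups did not overlap for 7 of the 9 on the lower side and for GPD2 on the higher side, against 41% and 26.2% of all tested probe sets. The median log2 difference of the 9 was -1.71. In RNA of a whole culture, fewer cells with a transcript and less of it per cell cannot be told apart.

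**Figure D1:**
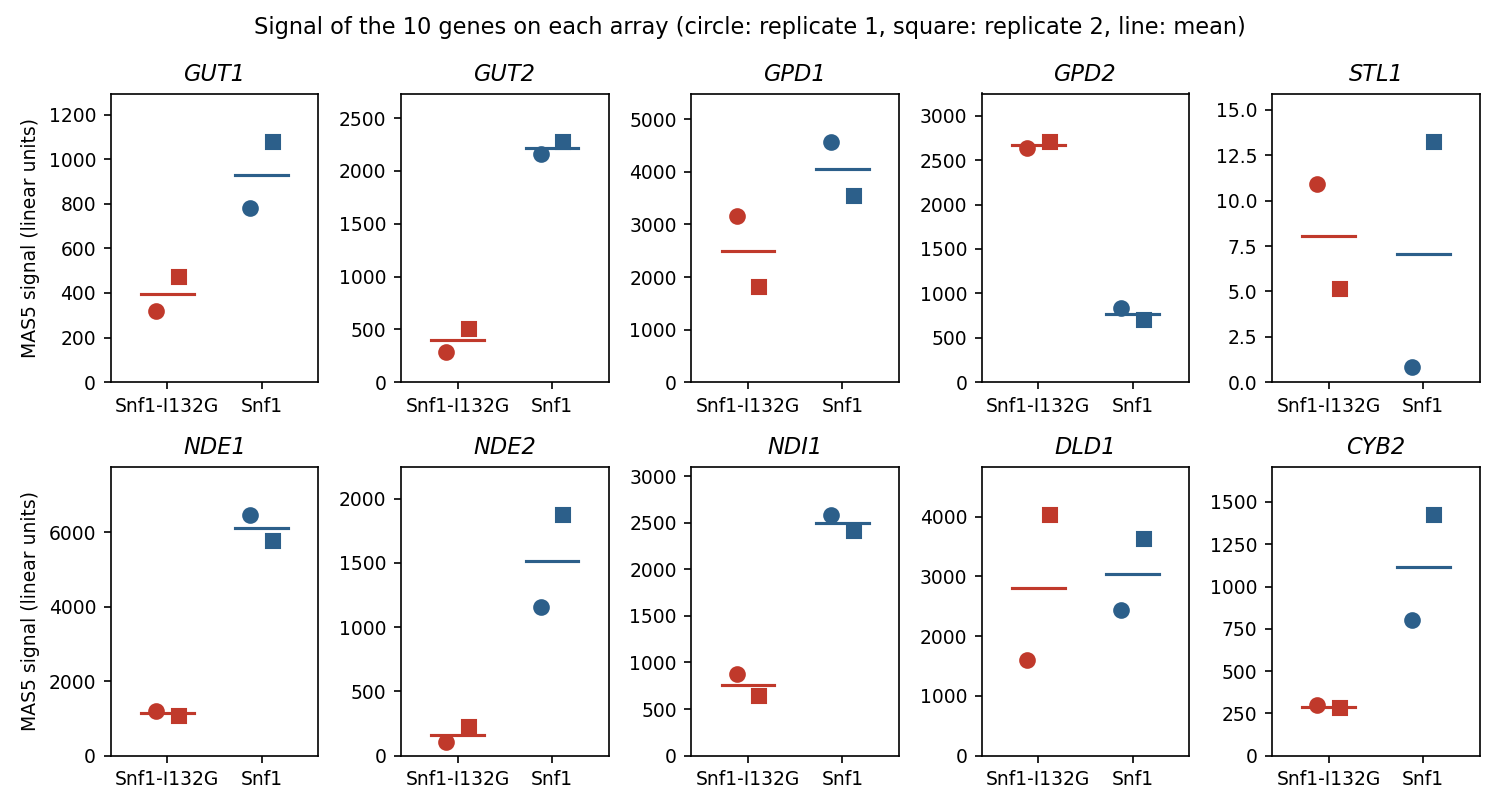
MAS5 signal (linear units, each panel with its own axis from 0) of the 10 genes on the 2 Snf1-I132G arrays (red, left) and the 2 Snf1 arrays (blue, right), with circles for replicate 1, squares for replicate 2 and a line at the mean. GUT1, GUT2, GPD1, NDE1, NDE2, NDI1 and CYB2 have both Snf1-I132G arrays below both Snf1 arrays, GPD2 has them above, and DLD1 and STL1 overlap.

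Both genes of glycerol use fell. GUT1 (YHL032C) encodes glycerol kinase, which commits glycerol to breakdown. Its signal was 319 and 469 in Snf1-I132G, against 779 and 1079 in Snf1. The groups did not overlap, but the higher Snf1-I132G array and the lower Snf1 array were only 1.66-fold apart. The log2 difference was -1.21 ± 0.26 (SE; limma, adjusted p = 0.022), and it was -1.25 within the pair of arrays numbered 1 and -1.17 within the pair numbered 2. The call was lost without replicate 1 of Snf1-I132G (-0.94, adjusted p = 0.057) and without replicate 2 of Snf1 (-0.98, adjusted p = 0.089).

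GUT2 (YIL155C) encodes the FAD-dependent glycerol-3-phosphate dehydrogenase of the mitochondrial inner membrane, the next step and itself an entry point to ubiquinone. Its signal was 287 and 507 in Snf1-I132G, against 2161 and 2277 in Snf1. The Snf1 arrays were nearly equal, and the spread lay between the Snf1-I132G arrays, the higher of which was still 4.26-fold below the lower Snf1 array. Mean signals were 397 ± 155 (SD, n = 2) in Snf1-I132G and 2219 ± 82.2 in Snf1, which is 5.59-fold lower. The log2 difference was -2.49 ± 0.27 (SE; limma, adjusted p = 0.0044), lower than that of 99.1% of tested probe sets.

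The paralogous genes of the NAD-dependent glycerol-3-phosphate dehydrogenase, which catalyses the first step of glycerol synthesis, had differences of opposite sign. GPD2 (YOL059W), the isozyme known for redox balance when respiration is limited, had 2634 and 2709 in Snf1-I132G, against 835 and 701 in Snf1. Both Snf1-I132G arrays were at least 3.16-fold above both Snf1 arrays and lay within 1.03-fold of each other. GPD2 rose by a log2 difference of 1.78 ± 0.16 (SE; limma, adjusted p = 0.0029), a difference higher than that of 99.0% of tested probe sets. The difference was 1.64 within pair 1 and 1.93 within pair 2.

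GPD1 (YDL022W), the isozyme induced by osmotic stress, had 3162 and 1813 in Snf1-I132G, against 4576 and 3534 in Snf1. The higher Snf1-I132G array came within 1.12-fold of the lower Snf1 array. The log2 difference of -0.74 ± 0.30 (SE) had a 95% interval from -1.48 to -0.0033 and did not pass after adjustment (limma, adjusted p = 0.12). It passed when blocked by pair (limma, adjusted p = 0.0023), without replicate 1 of Snf1-I132G (-1.14, adjusted p = 0.028) and with centring on hybridization controls (-0.98, limma, adjusted p = 0.0497).

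Set against each other on each array, log2(signal + 16) of GPD1 minus that of GPD2 was 0.26 and -0.58 in Snf1-I132G, against 2.43 and 2.31 in Snf1. The groups did not overlap, and the difference between them was -2.53, with -2.17 in pair 1 and -2.88 in pair 2. The exact permutation test over the 4 arrays, 2-sided, gave p = 0.333, the smallest that 2 arrays against 2 allow, or 0.50 after adjustment over the 3 such contrasts made.

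STL1 (YDR536W), the glycerol-proton symporter gene, was dim on every array. Its signal was 10.9 and 5.15 in Snf1-I132G, against 0.859 and 13.3 in Snf1, below the 25th percentile of all 4 arrays. The groups overlapped, the gene did not pass the filter, and no difference could be detected at this brightness.

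All 3 NADH dehydrogenase genes fell. NDE1 (YMR145C), the main external enzyme, which oxidises cytosolic NADH, had 1211 and 1056 in Snf1-I132G, against 6465 and 5764 in Snf1. The arrays of each group lay within 1.15-fold of each other, and the groups were 4.76-fold apart at their nearest. Mean signals were 1134 ± 110 (SD, n = 2) in Snf1-I132G and 6115 ± 496 in Snf1, 5.39-fold lower. The log2 difference of -2.42 ± 0.16 (SE; limma, adjusted p = 0.0018) was -2.40 within pair 1 and -2.43 within pair 2.

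NDE2 (YDL085W), the second external enzyme, had 103 and 223 in Snf1-I132G, against 1157 and 1873 in Snf1. It had the largest difference of the 9 tested genes, at -3.14 ± 0.39 (SE; limma, adjusted p = 0.0057), lower than that of 99.6% of tested probe sets. In both groups replicate 2 was the higher array, by 2.15-fold in Snf1-I132G and 1.62-fold in Snf1. The mean signal was 163 ± 84.2 (SD, n = 2) in Snf1-I132G and 1515 ± 506 in Snf1, 9.3-fold lower.

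Per array, log2(signal + 16) of NDE1 minus that of NDE2 was 3.36 and 2.17 in Snf1-I132G, against 2.47 and 1.61 in Snf1. The ranges of the groups overlapped, while the difference was positive within both pairs, at 0.89 in pair 1 and 0.55 in pair 2. Over all 4 arrays it was 0.72, with an exact permutation p of 0.667 (2-sided, without the pairing; adjusted p = 0.667 over 3 contrasts), where 0.333 is the smallest possible.

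NDI1 (YML120C), the internal enzyme, which oxidises NADH of the mitochondrial matrix, had 873 and 645 in Snf1-I132G, against 2581 and 2412 in Snf1. The groups were 2.76-fold apart at their nearest. The log2 difference was -1.71 ± 0.19 (SE; limma, adjusted p = 0.0046), with -1.55 in pair 1 and -1.88 in pair 2. Its difference was lower than that of 97.2% of tested probe sets.

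**Figure D2:**
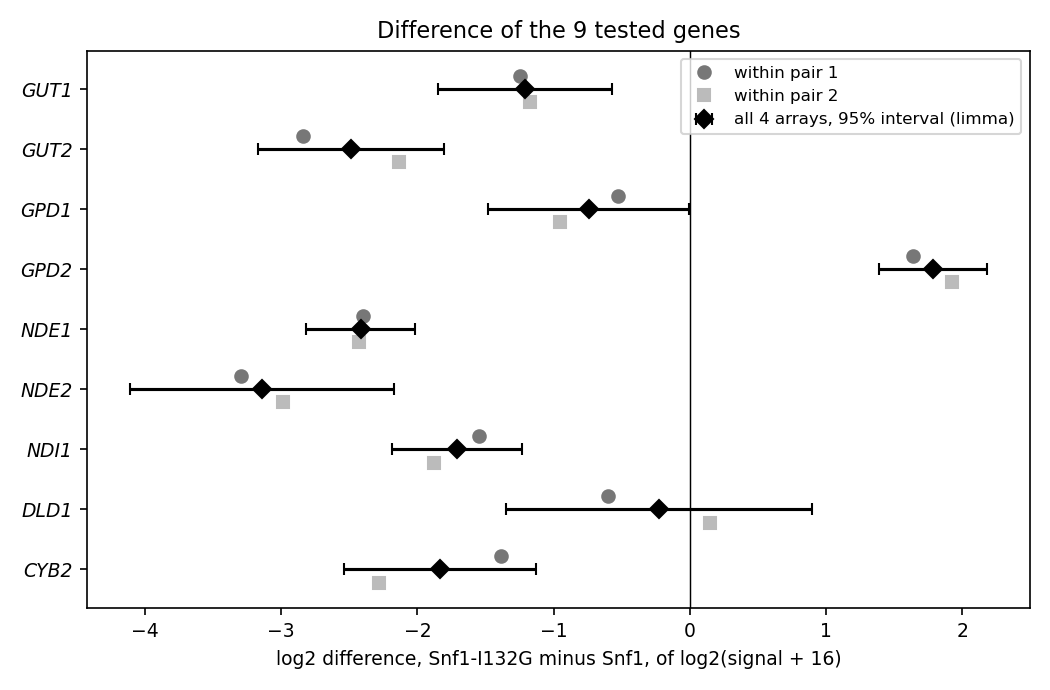
Log2 difference, Snf1-I132G minus Snf1, of the 9 tested genes, with diamonds and bars for the value over all 4 arrays and its 95% interval from limma, circles for pair 1 and squares for pair 2. GPD2 lies to the right of 0 at 1.78, the intervals of GPD1 and DLD1 come near to 0 or cross it, and the other 6 lie at -1.21 or lower.

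The lactate dehydrogenase genes, whose enzymes reduce cytochrome c, did not both fall. CYB2 (YML054C), for the L-lactate enzyme of the intermembrane space, had 297 and 279 in Snf1-I132G, against 803 and 1422 in Snf1. The Snf1-I132G arrays were within 1.06-fold of each other and the Snf1 arrays 1.77-fold apart, with no overlap. CYB2 fell, at -1.84 ± 0.28 (SE; limma, adjusted p = 0.0093), with -1.39 in pair 1 and -2.28 in pair 2.

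DLD1 (YDL174C), for the D-lactate enzyme of the inner membrane, had 1602 and 4025 in Snf1-I132G, against 2437 and 3626 in Snf1. The Snf1-I132G arrays were 2.51-fold apart and enclosed both Snf1 arrays. The log2 difference of -0.23 ± 0.45 (SE; limma, adjusted p = 0.73) had a 95% interval from -1.35 to 0.90, wide enough to hold a fall of over 2-fold. It was -0.60 within pair 1 and 0.15 within pair 2, and it turned positive without replicate 1 of Snf1-I132G (0.43) and without replicate 2 of Snf1 (0.06).

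Per array, log2(signal + 16) of DLD1 minus that of CYB2 was 2.37 and 3.77 in Snf1-I132G, against 1.58 and 1.34 in Snf1. The values did not overlap, and the groups differed by 1.61, with 0.79 in pair 1 and 2.43 in pair 2. The exact permutation p was again 0.333 (2-sided; adjusted p = 0.50), the smallest possible.

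**Figure D3:**
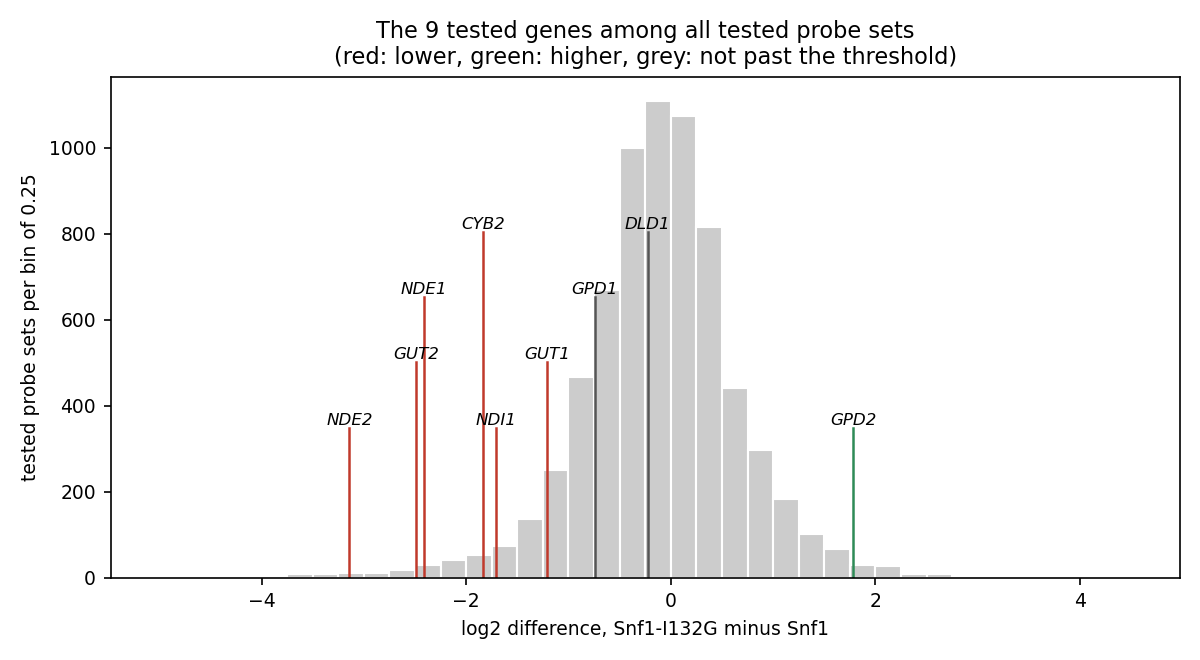
Histogram of the log2 difference, Snf1-I132G minus Snf1, of the 6956 tested probe sets in bins of 0.25 (vertical axis, probe sets per bin), with a vertical line at each of the 9 tested genes whose height carries no value. NDE2, GUT2, NDE1, CYB2 and NDI1 lie in the left tail at -1.71 or lower, GPD2 in the right tail at 1.78, and DLD1 at -0.23 among the bulk.

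NDE2, the gene with the largest difference, had its nearest profiles over the 4 arrays in HXT2, REG2 and FMP45 among 5190 other genes, by Euclidean distance of log2(signal + 16) after centring each gene on its mean. HXT2, for a hexose transporter, lay at a distance of 0.216 and had a log2 difference of -3.10 ± 0.38 (SE). REG2, for a regulatory subunit of the Glc7 protein phosphatase, lay at 0.23, with -3.11 ± 0.38, and FMP45 at 0.254, with -2.94 ± 0.43. The measure rests on 4 arrays, so it holds little beyond the size of the difference and which replicate was brighter.

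Among other genes of the glycerol pathway, the main phosphatase gene of glycerol synthesis rose. Of 8 such genes 1 rose and 1 fell, where 10.3% of all tested probe sets rose and 17.5% fell, with a median log2 difference of -0.11 beside -0.10 over all tested probe sets. RHR2, also called GPP1, encodes the glycerol-3-phosphate phosphatase that follows Gpd1 and Gpd2. It had 8441 and 9079 in Snf1-I132G, against 3775 and 4674 in Snf1, and rose by 1.06 ± 0.17 (SE; limma, adjusted p = 0.011). Its paralog HOR2, also called GPP2, was at 0.53 ± 0.35 and did not pass (limma, adjusted p = 0.31; blocked by pair, 0.013). GCY1, for a glycerol dehydrogenase, fell by a log2 difference of -0.63 ± 0.17 (limma, adjusted p = 0.043). FPS1, for the glycerol channel, was at -0.24 ± 0.21, its regulator gene RGC1 at -0.30 ± 0.15 and the dihydroxyacetone kinase gene DAK1 at -0.28 ± 0.17, and none of them passed. The rise was lost without replicate 1 of Snf1, and the fall was lost without that array, without the other Snf1 array, without replicate 1 of Snf1-I132G, and with median centring, no filter or no intensity trend (0 calls each).

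Around the lactate dehydrogenases, the lactate permease gene JEN1 fell and DLD3, a gene named for D-lactate dehydrogenase, rose. The list held 7 genes of lactate uptake, cytochrome c and other enzymes named as lactate dehydrogenases. Of these 2 fell and 1 rose, at a median of -1.04 beside -0.10 over all tested probe sets. Over all of those 17.5% fell and 10.3% rose, so neither of these adjusted counts stands far from the background. At an unadjusted limma p under 0.05, 5 of the 7 were lower and 1 higher, where 25.9% of all tested probe sets were lower and 14.9% higher. JEN1 had 41.9 and 81.1 in Snf1-I132G, against 283 and 314 in Snf1, and fell, at -2.07 ± 0.28 (SE; limma, adjusted p = 0.0070). DLD3 had 614 and 1244 in Snf1-I132G, against 253 and 271 in Snf1, and rose by 1.68 ± 0.33 (limma, adjusted p = 0.018). The mitochondrial relative DLD2 was at -0.47 ± 0.16 (limma, adjusted p = 0.078; blocked by pair, 0.020).

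Cytochrome c, the acceptor of Cyb2 and Dld1, is encoded by CYC1 and CYC7. CYC7, the minor isoform, fell, at -1.17 ± 0.17 (SE; limma, adjusted p = 0.0080). CYC1, the major isoform, had 743 and 1922 in Snf1-I132G, against 2453 and 2604 in Snf1. Its log2 difference was -1.07 ± 0.43 (limma, adjusted p = 0.12; blocked by pair, 0.0071). CYC3, for the heme lyase that matures it, was at -1.04 ± 0.37 (limma, adjusted p = 0.088; blocked by pair, 0.0031), and CYC2 at -0.14 ± 0.18 did not pass and changed sign with quantile normalization and median centring. The 7 genes had 5 falls with the block, where 28.6% of all tested probe sets fell. They had 4 with centring on hybridization controls, where 2110 of 6956 probe sets fell. The count was also higher without replicate 2 of Snf1-I132G.

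Among 14 other genes of electron entry to ubiquinone and of ubiquinone synthesis, the 4 genes of succinate dehydrogenase, 1 of proline oxidation and 3 of 9 for ubiquinone synthesis fell. These were 8 falls and no rise (limma), at a median of -1.01, where 17.5% of all tested probe sets fell. At an unadjusted p under 0.05 there were 12 falls and 0 rises, where 25.9% of all tested probe sets were lower and 14.9% higher. With the pair as a block there were 13 falls and 0 rises, where 28.6% fell and 19.5% rose. Succinate dehydrogenase links the TCA cycle to the chain, and of its genes SDH1 was at -2.90 ± 0.18 (SE), SDH2 at -1.84 ± 0.15, SDH3 at -1.78 ± 0.18 and SDH4 at -1.49 ± 0.19. PUT1, for proline oxidase, had 64.9 and 40.9 in Snf1-I132G, against 145 and 125 in Snf1, and fell at -1.15 ± 0.24 (limma, adjusted p = 0.020). Those SDH genes had adjusted p-values of at most 0.0060 in limma.

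Of the ubiquinone synthesis genes COQ7, COQ4 and COQ9 fell, at -1.23 ± 0.30, -0.98 ± 0.15 and -0.62 ± 0.15 (SE; limma, adjusted p = 0.034, 0.0097 and 0.034). COQ9 had 3 probe sets, and the value is of the brightest. Another fell, at -0.75 ± 0.17 (limma, adjusted p = 0.029), and the third did not pass the filter and had overlapping groups. COQ6 at -0.51 ± 0.17, COQ8 at -0.53 ± 0.18, COQ3 at -1.05 ± 0.37 and COQ1 at -0.51 ± 0.19 did not pass, though they did with the block (limma, adjusted p = 0.019, 0.023, 0.0038 and 0.028). Falls among the 14 numbered 6 with quantile normalization and 6 with median centring, where 918 and 811 of 6956 probe sets fell. They numbered 13 with centring on hybridization controls, where 2110 of 6956 fell. Fewer of the 14 passed without replicate 2 of Snf1-I132G and when either Snf1 array was left out.

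**Figure D4:**
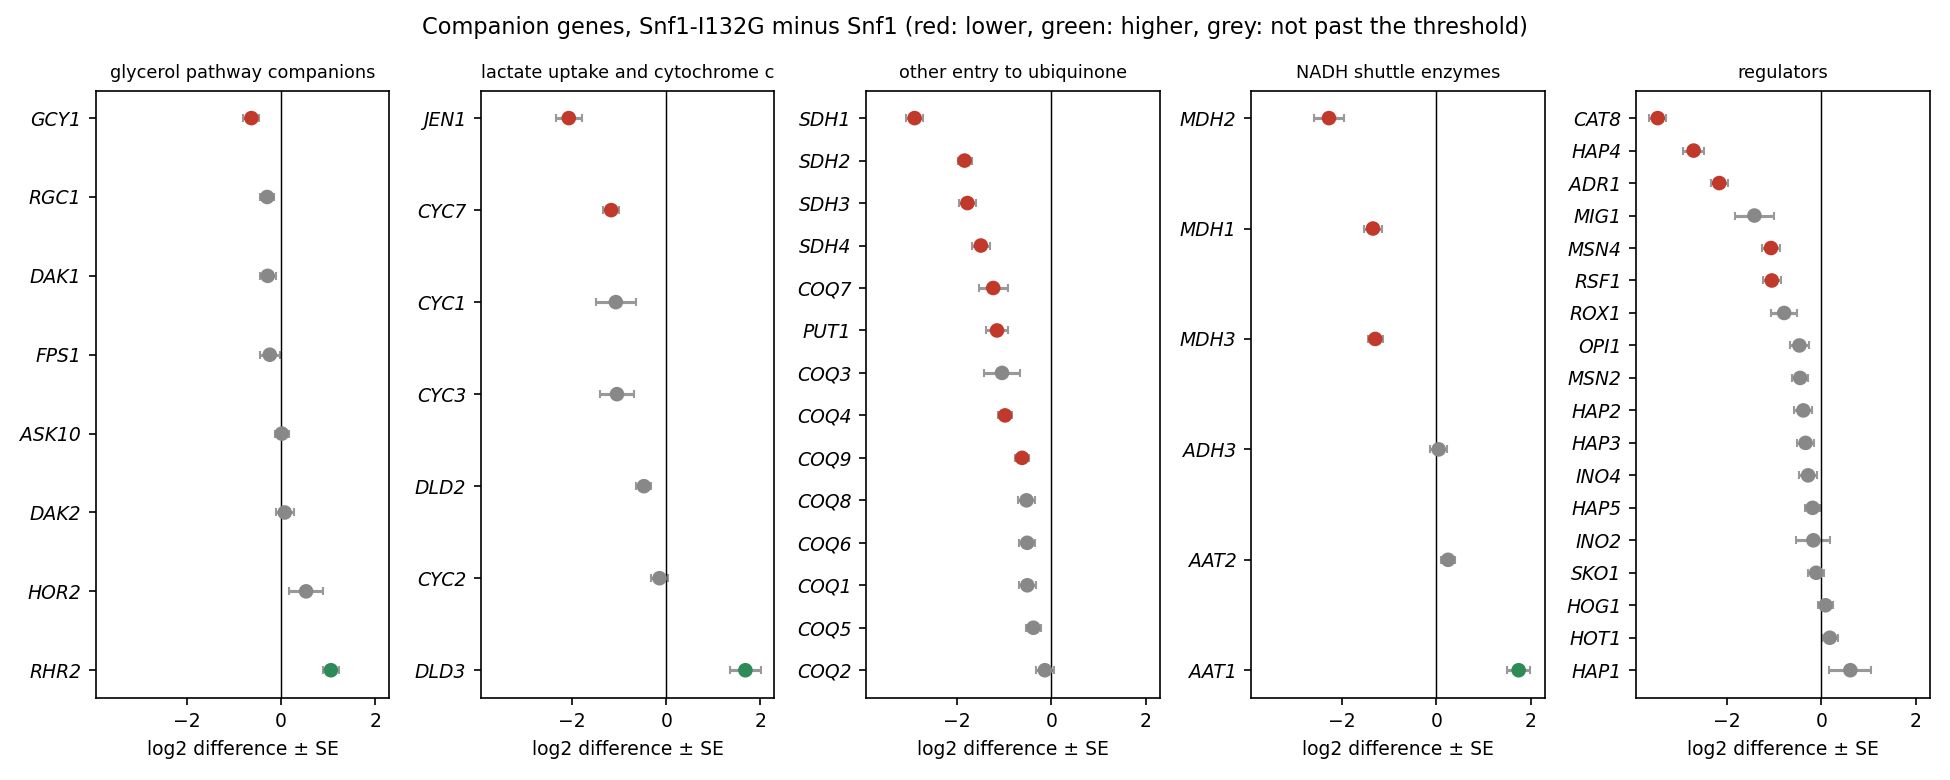
Log2 difference, Snf1-I132G minus Snf1, of 53 related genes in 5 groups, with bars for the standard error from limma, red for genes that fell, green for genes that rose and grey for the rest. The 14 genes of electron entry to ubiquinone and of ubiquinone synthesis all lie left of 0 on the deposited scale. The median of all tested probe sets is also below 0 there, at -0.10. COQ2 crosses to 0.04 with quantile normalization and 0.05 with median centring. RHR2, DLD3 and AAT1 lie right of 0 in green.

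Enzymes that carry reducing equivalents of NADH between compartments moved both ways. Of 6 genes 3 fell and 1 rose, at a median of -0.62, where 17.5% of all tested probe sets fell and 10.3% rose. The malate dehydrogenase genes fell, the mitochondrial MDH1 at -1.34 ± 0.20 (SE), the cytosolic MDH2 at -2.28 ± 0.31 and the peroxisomal MDH3 at -1.30 ± 0.16 (limma, adjusted p = 0.0081, 0.0071 and 0.0056). AAT1, for the mitochondrial aspartate aminotransferase, had 268 and 406 in Snf1-I132G, against 78.1 and 97.0 in Snf1, and rose by 1.75 ± 0.25 (limma, adjusted p = 0.0079). Its cytosolic counterpart AAT2 at 0.25 ± 0.15 and the mitochondrial alcohol dehydrogenase gene ADH3 at 0.05 ± 0.18 did not pass, and ADH3 changed sign with quantile normalization and with centring on hybridization controls.

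Among 18 genes of regulators with known ties to these pathways, 5 fell and none rose (limma), at a median of -0.42, where 17.5% of all tested probe sets fell. At an unadjusted p under 0.05 there were 8 falls and 0 rises, where 25.9% were lower and 14.9% higher. With the pair as a block 9 fell and 1 rose, where 28.6% fell and 19.5% rose. That rise was of the brightest HAP1 probe set, while another HAP1 probe set fell with and without the block. HAP4, for the activating subunit of the CCAAT-binding Hap complex that drives respiratory genes, had 208 and 318 in Snf1-I132G, against 1753 and 1799 in Snf1. HAP4 fell, at -2.71 ± 0.22 (SE; limma, adjusted p = 0.0026). The DNA-binding subunit genes HAP2, HAP3 and HAP5 lay between -0.39 and -0.19 and did not pass.

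CAT8 and ADR1, activator genes of growth without fermentable sugar, fell, at -3.47 ± 0.17 (SE) and -2.17 ± 0.18 (limma, adjusted p = 0.0015 and 0.0026). CAT8 had 11.2 and 10.8 in Snf1-I132G, below the 25th percentile of those arrays, against 276 and 293 in Snf1. It passed the filter through its Snf1 values alone, and the size of its fall rests partly on the pseudocount. RSF1, needed for respiratory growth, and MSN4, for a stress activator, fell, at -1.05 ± 0.19 and -1.07 ± 0.19 (limma, adjusted p = 0.014 for each). RSF1 had 32.7 and 25.0 in Snf1-I132G, close to the 25th percentile of those arrays (32.0 and 31.8), against 76.4 and 77.2 in Snf1, so it passed the filter through its Snf1 values and its size too rests partly on the pseudocount. MIG1 at -1.42 ± 0.42, ROX1 at -0.79 ± 0.27, MSN2 at -0.45 ± 0.17 and OPI1 at -0.47 ± 0.20 did not pass, but did with the block (limma, adjusted p = 4.3e-04, 0.0041, 0.022 and 0.028).

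HAP1, for the heme-responsive activator known to act on CYB2 and CYC1, had 3 probe sets that disagreed. The brightest, which stood for the gene in the counts above, is of a type that can match several related sequences and was at 0.61 ± 0.44 (SE; limma, adjusted p = 0.34; blocked by pair, 0.037). The one with a plain name had 242 and 268 in Snf1-I132G, against 486 and 501 in Snf1. It fell, at -0.91 ± 0.16 (limma, adjusted p = 0.013; blocked by pair, 8.4e-04). The third, of the same type as the brightest, was at 0.13 ± 0.24 and did not pass. The regulators had 2 falls with a filter at the 50th percentile, which tested 12 of them, where 977 of 4638 probe sets fell. They had 10 with centring on hybridization controls, where 2110 of 6956 fell. Fewer regulators fell when either Snf1 array was left out, and more fell without replicate 2 of Snf1-I132G. A rise was called without replicate 1 of Snf1.

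**Figure D5:**
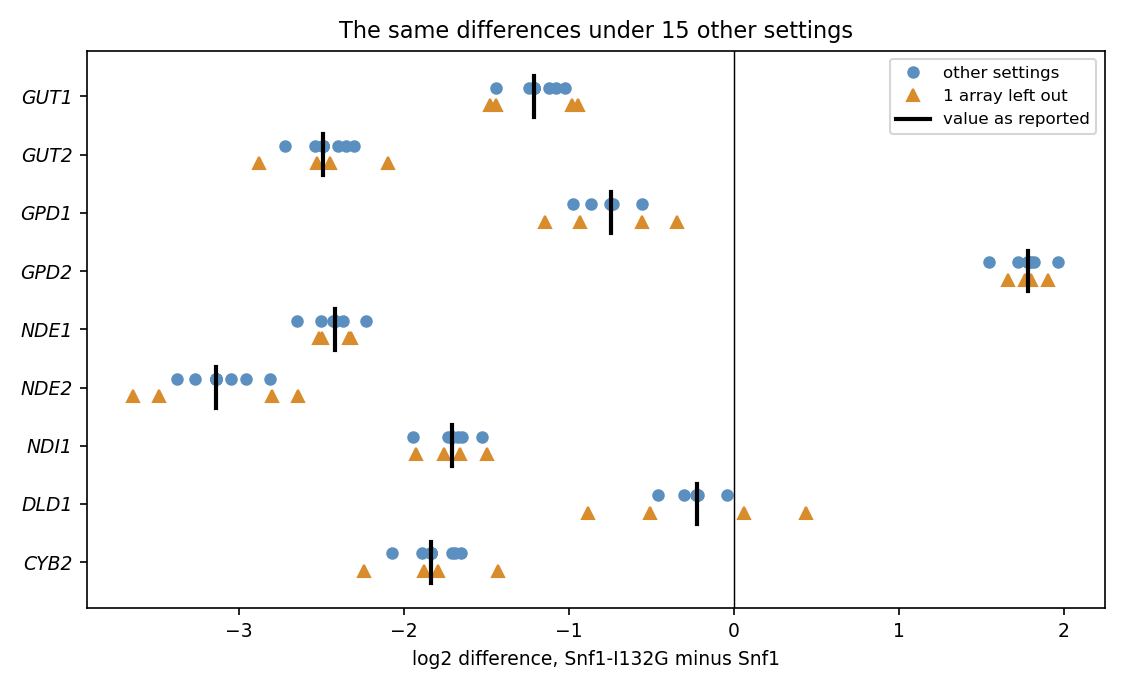
Log2 difference, Snf1-I132G minus Snf1, of the 9 tested genes as reported (black line), with 1 array left out (triangles) and under the other settings tried (circles). The 6 genes that fell stay left of 0 and GPD2 stays right of it under all 15 alternatives, while DLD1 crosses 0. The filters, the variance models, the block and 1 probe set per gene cannot move any of these values. For the 6 genes and GPD2, whose groups did not overlap, leaving out 1 array cannot change the sign.

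Across the 15 alternatives, GUT2, NDE1, NDE2, NDI1 and CYB2 kept their fall and GPD2 its rise past the threshold. The difference ranged from -2.88 to -2.10 for GUT2, from -2.65 to -2.23 for NDE1, from -3.64 to -2.64 for NDE2, from -1.94 to -1.50 for NDI1, from -2.24 to -1.43 for CYB2 and from 1.55 to 1.97 for GPD2. The highest adjusted p of these genes under any alternative was 0.033, for CYB2.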

How the data were processed

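Signals of 4 Affymetrix Yeast Genome S98 arrays were taken from the deposited value table. The deposited values are array intensities on a linear scale made by the authors with MAS5, per the submitters' processing notes, of unstated version. Trimmed means, leaving out 2% at both ends, ran from 497 to 499, so each array had been scaled. Of 9335 probe sets 60 were controls, and 6504 of the others were named by 1 gene through the platform annotation, all matched to the RefSeq table of assembly R64. No coordinates are given, as nothing names the build of the array design. Detection calls and sequences were not used here.

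Signals were taken as log2(value + 16), and probe sets whose mean signal reached the 25th percentile were kept (6956). The test was limma 3.58.1 (lmFit, then eBayes with the trend option, leaving 2 residual degrees of freedom) in R 4.3.3, with Benjamini-Hochberg adjustment over all tested probe sets. With the pair as a block, only 1 residual degree of freedom remained. The blocked p-values rest on it and on variance shared across probe sets. GPD1 and GPD2, NDE1 and NDE2, and DLD1 and CYB2 were set against each other by an exact permutation test. Where a companion gene had several probe sets, the brightest stood for it. All 10 genes are named, and of each companion list every gene called and up to 4 more by smallest p. HAP1, HAP2, HAP3, HAP5, COQ2 and INO2 were added once their values had been seen. The genes, lists, tests and alternatives were chosen with earlier results of these data known. The same-numbered arrays were treated as pairs because their description labels hold a common string. That reading is not certain. Their deviations from the group means correlated at r = 0.513 over probe sets. The alternatives were 3 scalings, pseudocounts of 1 and 64, 2 filters, 2 variance models, the pair as a block, 1 probe set per gene, and omitting 1 array at a time, which leaves 1 array in a group that is assumed to vary like the other group.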

Additional observations from a re-analysis of the deposited data

How the results depend on the processing

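With 2 arrays a group and no separate cultures stated, the number of arrays limits the precision of every value, and levels near that of STL1 carry no usable difference. Of the 10 genes, 5 to 6 fell and 1 rose when an array was left out, and 6 to 7 fell and 1 rose under the other alternatives. DLD1, which did not pass, changed sign to 0.43 without replicate 1 of Snf1-I132G and 0.06 without replicate 2 of Snf1, and ranged from -0.89 to 0.43 over the omitted arrays. The contrasts of gene with gene could not change under centring, the filters, the variance models, the block or 1 probe set per gene. For GPD1 minus GPD2 and DLD1 minus CYB2, which did not overlap, leaving out an array could not change the sign either. Under the alternatives that could change it, every contrast kept its sign. The ranges were -2.95 to -2.11 for GPD1 minus GPD2, 0.13 to 1.32 for NDE1 minus NDE2 and 0.91 to 2.31 for DLD1 minus CYB2.

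The counts moved more, and the cause was not tested. With the replicate pair as a block, 1356 probe sets rose and 1986 fell, which is 19.5% and 28.6% of those tested. Without it the shares were 10.3% and 17.5%. Of the 53 companion genes 5 rose and 31 fell with the block, against 3 and 19 without it. Among the 10 genes the block changed only the call of GPD1. Of 6956 probe sets, 811 fell with median centring and 2110 with centring on hybridization controls, which also gave 31 falls among the 53 companion genes. Leaving out 1 array gave 337 to 663 rises and 466 to 1061 falls over all probe sets, and 3 rises and 12 to 20 falls among companion genes. The lowest counts came without replicate 2 of Snf1.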

Other observations

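Of the 62 tested genes described here, 9 had their Snf1-I132G arrays over 2-fold apart (14.5%), where 4.63% of all tested probe sets did, a comparison made after the values were seen. Replicate 2 was above replicate 1 by 2.15-fold for NDE2, 2.51-fold for DLD1, 2.03-fold for DLD3, 2.59-fold for CYC1, 2.20-fold for CYC3, 2.01-fold for INO2 and 2.54-fold for MIG1. For COQ3 and COQ7 replicate 2 was the lower, at 0.433 and 0.483 times replicate 1. On the Snf1 arrays the ratio of replicate 2 to replicate 1 was 1.62 for NDE2, 1.49 for DLD1, 1.07 for DLD3, 1.06 for CYC1, 1.11 for CYC3, 1.5 for INO2, 1.40 for MIG1, 0.877 for COQ3 and 0.954 for COQ7. The reason for the spread was not tested.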
